A study of Mus musculus with 8 samples.

Results

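Genes that mark macrophages and other leukocytes, Aif1, Fcer1g, Csf1r, Cd68, Cd14, C1qa, C1qb, C1qc, Ptprc and Tyrobp, were followed in mouse testes with 2 disrupted copies, or 1, of Dnmt3c, which encodes a DNA methyltransferase that acts in male germ cells. They were chosen by name, as 10 of the 18584 genes listed in any library, and all 10 were listed in all 8 libraries. Whole testis RNA was sequenced from mice homozygous for the IAP allele, in which a retrovirus-like element sits in Dnmt3c (IAP/IAP, called mutants here), and from heterozygotes (IAP/WT, called controls). Both genotypes came from a hybrid of the strains C3H/HeJ - C57BL/6J, and the controls carry 1 IAP allele too, so no group was free of it. Testes were taken at 16.5 days post coitum (dpc) and at 10 or 20 days post partum (dpp), with 1 library per genotype at the first 2 ages and 2 per genotype at 20 dpp.

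Macrophages of the testis lie mainly in the interstitium beside the Leydig cells and on the peritubular wall, outside the seminiferous epithelium where germ cells mature. They depend on signalling through the CSF1 receptor, are known for clearing debris and dampening immune responses, and are found there from fetal life on. C1q, Fc receptor adaptors and lysosomal proteins serve their uptake of opsonised and dying cells.

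Reads on genes ran from 57166311 to 155742823 per library. Normalised reads below are whole reads divided by the authors' library factor, which was set within each age. Levels per length are reads per kb of the longest coding transcript per 1000000 gene reads, and CPM are reads per 1000000 gene reads. The genotype labels were not checked against Dnmt3c itself, whose value was not analysed here. Whether the 2 libraries of a group are 2 animals is not stated, and p-values therefore cover the spread between libraries only. In bulk tissue, fewer cells of a type and less RNA per cell cannot be told apart.

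Markers of leukocyte types were first looked up at 20 dpp. All 20 genes of a macrophage marker list, which includes Aif1, were listed. Adgre1 had 651 and 1258 normalised reads in the controls and 817 and 1099 in the mutants. The mannose receptor Mrc1 had 8378 and 9644 in the controls. Of 19 T and NK cell markers, 9 were not listed at 20 dpp, among them Trac, Cd2 and Gzma. The 10 that were listed ran, in the controls, from Cd3g at 24.2 and 10.4 normalised reads to Zap70 at 372 and 303. Ptprc had 276 and 303 there. Of 9 B cell markers, 6 were listed, and Ms4a1 was not. Of 10 granulocyte markers, 8 were not listed, S100a8 and S100a9 included, and neither were 7 of 8 mast cell markers. Some lymphocyte markers were thus present too, and which cells the reads come from was not tested. The lowest count in a deposited table was 5 or 6 reads, so a gene not listed may have had fewer in at least 1 library of that age.

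The order of the 10 genes by level per length was much the same in most libraries. At 10 dpp the control held C1qc at 12.9, C1qb at 12.7, C1qa at 12.4 and Tyrobp at 12.2, then Fcer1g at 7.94, Cd68 at 6.17, Csf1r at 5.12, Aif1 at 2.46, Cd14 at 0.856 and Ptprc at 0.810. The first 4 spanned 1.06-fold and the last 2 also 1.06-fold, so these neighbours are not told apart with 1 library. Aif1 was eighth of the 10 in 6 libraries. In the 20 dpp controls it was first, at 36.9, and second, at 19.6.

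**Figure D1:**
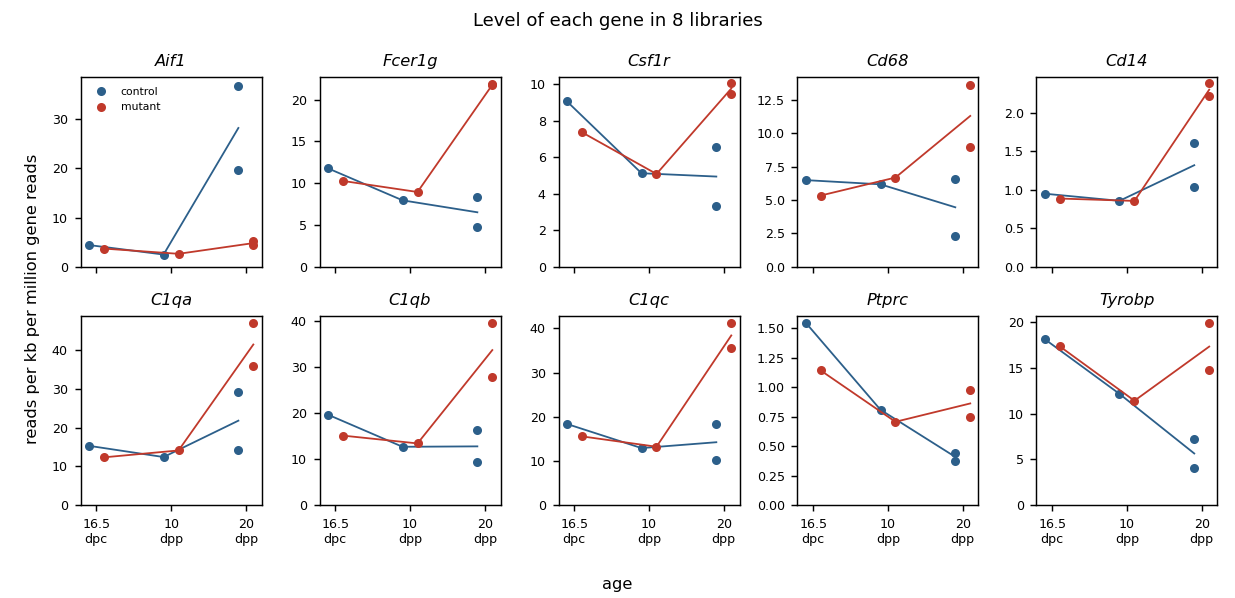
Level of each of the 10 genes, in reads per kb of the longest coding transcript per 1000000 gene reads, at the 3 ages in controls (blue) and mutants (red). Points are libraries and lines join the means; each panel has its own axis from 0, and Aif1 alone has both 20 dpp controls (36.9 and 19.6) above both mutants (5.20 and 4.38).

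Members whose calls at 20 dpp went opposite ways are shown here by sequence, Aif1 as the one that was lower in mutants and Fcer1g, C1qb and C1qc as genes that were higher. RefSeq start sites (GRCm38.p6) gave windows for 6 of the 10 genes, 300 bases each, from 250 before to 50 after the start, the 4 shown all on the minus strand. They are chr17:35176003-35176302 for Aif1, chr1:171234300-171234599 for Fcer1g, chr4:136886151-136886450 for C1qb and chr4:136892865-136893164 for C1qc. C1qa and Tyrobp had no entry, and the windows of Csf1r and Cd14 were not analysed here. Capitals mark the 2 forms of the site of PU.1, the leukocyte transcription factor, that were searched, GAGGAA and AGGAAG, on both strands. These overlap each other by all but 1 base.
Aif1: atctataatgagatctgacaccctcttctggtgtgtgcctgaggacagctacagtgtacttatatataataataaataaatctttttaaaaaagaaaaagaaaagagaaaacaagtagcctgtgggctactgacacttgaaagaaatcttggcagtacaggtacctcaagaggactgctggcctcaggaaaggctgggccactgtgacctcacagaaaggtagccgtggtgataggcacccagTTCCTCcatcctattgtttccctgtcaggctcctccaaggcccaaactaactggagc
Fcer1g: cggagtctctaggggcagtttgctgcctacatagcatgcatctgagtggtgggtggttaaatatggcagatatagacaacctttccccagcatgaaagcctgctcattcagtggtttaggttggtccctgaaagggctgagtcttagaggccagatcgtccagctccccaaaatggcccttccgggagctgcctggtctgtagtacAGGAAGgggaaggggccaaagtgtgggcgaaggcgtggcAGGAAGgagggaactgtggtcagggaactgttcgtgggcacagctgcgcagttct
C1qb: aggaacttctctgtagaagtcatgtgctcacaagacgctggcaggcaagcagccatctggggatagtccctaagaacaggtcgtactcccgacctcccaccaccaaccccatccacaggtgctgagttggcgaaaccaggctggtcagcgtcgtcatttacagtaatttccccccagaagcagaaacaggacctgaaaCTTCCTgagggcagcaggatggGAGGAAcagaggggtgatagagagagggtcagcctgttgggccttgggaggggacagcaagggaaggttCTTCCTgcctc
C1qc: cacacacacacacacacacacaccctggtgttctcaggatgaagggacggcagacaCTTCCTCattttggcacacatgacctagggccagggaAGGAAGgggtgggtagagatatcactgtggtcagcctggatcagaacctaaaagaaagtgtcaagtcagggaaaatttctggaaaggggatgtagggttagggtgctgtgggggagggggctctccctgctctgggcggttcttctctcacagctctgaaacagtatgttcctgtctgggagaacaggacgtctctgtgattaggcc

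GAGGAA stood in 5 of the 6 genes with a window, Aif1 once, and AGGAAG stood in 4 of the 6, not in Aif1. They are common letters, found in 28.3% and 35.4% of the 32851 windows of the table. The cyclic AMP response element TGACGTCA, bound by CREM, was in none of the 6, against 1.79% of all windows. TATAAA was in Ptprc alone, against 13.6%. A match is a description of the sequence, and no match says only that these letters are not in the window.

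Aif1, which encodes the calcium and actin binding protein IBA1 used to stain macrophages and microglia, lies on chromosome 17 at 35170991 to 35176068 (mm10, minus strand). Normalised reads at 20 dpp were 4643 and 2316 in the controls and 412 and 360 in the mutants. The lower control was 5.62 times the higher mutant, and the genotypes did not overlap. The log2 change, mutant minus control, was -3.09 ± 0.34 (SE, 2 libraries per genotype), an 8.496-fold fall with an adjusted p of 0.000217 in limma's moderated test. Aif1 kept this call under all 12 alternative settings, with log2 changes from -3.59 to -2.49 and adjusted p from 5.18e-06 to 0.00654.

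The annotation has 7 Aif1 transcripts, 4 of them coding. The coding transcripts begin at 35176001, just downstream of the window above, and further in at 35173278, 35172819 and 35172631. The deposited tables give 1 value per gene, so which transcripts the reads come from was not analysed here.

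The Fc and ITAM adaptors rose. Fcer1g encodes the common gamma chain of Fc receptors and had 464 and 765 normalised reads in the controls against 1353 and 1390 in the mutants. Both mutants lay above both controls, and the log2 change was 1.20 ± 0.29 (2.30-fold, limma adjusted p = 0.00976). Tyrobp encodes DAP12, the adaptor of TREM2 and other activating receptors. It had 352 and 581 in the controls and 1077 and 826 in the mutants, again without overlap, a log2 change of 1.06 ± 0.33 (2.08-fold, limma adjusted p = 0.0261). The call for Tyrobp was lost without control replicate 1 (0.70, limma adjusted p = 0.125) and without mutant replicate 1 (0.87, limma adjusted p = 0.0994), while Fcer1g kept its call under all 12 alternatives (0.84 to 1.80, limma adjusted p from 0.00131 to 0.0426).

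C1qa, C1qb and C1qc encode the 3 chains of C1q, the recognition part of the first complement component, which macrophages make. The genes sit side by side within 18675 bases of chromosome 4 (136880129 to 136898803), on 1 strand. C1qc had 1770 and 2968 normalised reads in the controls and 4503 and 4003 in the mutants, and C1qb had 1453 and 2386 against 3901 and 2825. Neither overlapped between genotypes, and both rose, C1qc by 0.89 ± 0.25 (1.85-fold, limma adjusted p = 0.0179) and C1qb by 0.83 ± 0.27 (1.78-fold, limma adjusted p = 0.0329). C1qa had 2143 and 4102 in the controls and 4435 and 3482 in the mutants, so control replicate 2 lay between the mutants. Its log2 change of 0.41 (95% interval -0.30 to 1.11) did not pass, with a limma adjusted p of 0.274. Without control replicate 1 the values were 0.48 for C1qb (limma adjusted p = 0.169), 0.52 for C1qc (0.0805) and -0.06 for C1qa (0.844), and without mutant replicate 1 C1qb was at 0.60 (limma adjusted p = 0.0893).

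The ratio of the 3 chains, per length, differed between the controls of 20 dpp and the other libraries. C1qa to C1qc was 1.40 and 1.60 in those controls and 0.791 to 1.14 in the other 6 libraries, so the groups did not overlap. C1qb to C1qc was 0.908 and 0.889 there and 0.780 to 1.07 in the others, where the ranges overlap. No test was run on these ratios.

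Csf1r, Cd68, Cd14 and Ptprc did not pass at 20 dpp. Csf1r, the receptor for CSF1 and IL-34, had 2258 and 4151 normalised reads in the controls and 4040 and 4432 in the mutants (log2 change 0.47, 95% interval -0.18 to 1.11, limma adjusted p = 0.177). It shares 873 exon bases with Hmgxb3 on the opposite strand, whose log2 change was -0.32 (limma adjusted p = 0.0722) and 0.27 with total gene reads, and the strand setting of the counting is not given in the sources used here. Cd68, a lysosomal glycoprotein of phagocytes, had 407 and 1095 in the controls and 1521 and 1032 in the mutants (0.91, interval -0.17 to 1.99, limma adjusted p = 0.126). For both genes control replicate 2 was above 1 of the mutants, and without it both passed (Csf1r 0.91, limma adjusted p = 0.00928, and Cd68 1.62, 0.00681).

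Cd14, the lipopolysaccharide coreceptor, had 244 and 355 normalised reads in the controls and 355 and 341 in the mutants (0.24, interval -0.55 to 1.03, limma adjusted p = 0.561). Ptprc, the leukocyte phosphatase CD45, had 276 and 303 in the controls and 345 and 465 in the mutants. Its libraries did not overlap, but the log2 change of 0.47 (interval -0.29 to 1.23) did not pass, with a limma adjusted p of 0.245. The intervals of all 4 genes reach beyond 2-fold higher, so a difference of that size is not excluded.

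**Figure D2:**
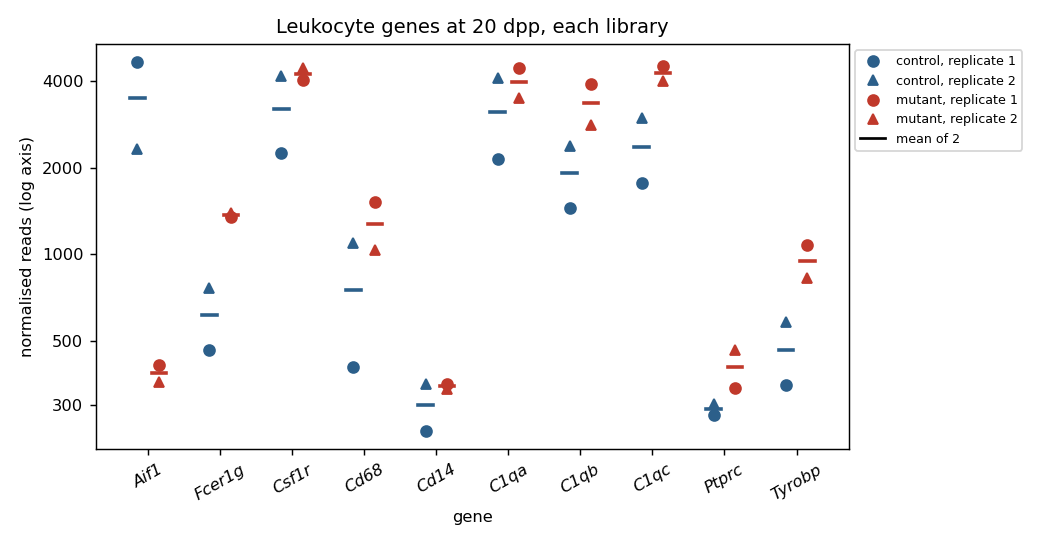
Normalised reads (log axis) of the 10 genes at 20 dpp in 2 controls (blue) and 2 mutants (red); circles are replicate 1, triangles replicate 2, bars the mean of 2. Aif1 is the gene with both controls (4643 and 2316) above both mutants (412 and 360), and control replicate 1 is the lowest library for the other 9.

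Of the 10 genes, 4 rose, 1 fell and 5 did not pass at 20 dpp. Over all 17194 genes 59.5% passed, 26.4% higher and 33.1% lower, so a share of 4 in 10 among higher calls stands beside a background where more than 1 in 4 rose. The median log2 change was 0.65 over the 10 genes and 0.05 over all genes. Libraries did not overlap between genotypes, with mutants higher, for 41.2% of all genes, and as many had mutants lower. Of the 10 genes, 5 had mutants higher without overlap, Fcer1g, Tyrobp, C1qb, C1qc and Ptprc, and 1, Aif1, had mutants lower.

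These calls lean on how libraries are scaled and on 1 control. Scaled to total gene reads, the median of all genes moved to 0.64 and 9 of the 10 genes passed, 8 higher and Aif1 lower, with Csf1r at 1.06, Cd68 at 1.50, C1qa at 1.00 and Ptprc at 1.06. Relative to the shifted median the members' median of 1.25 stood about as far above all genes as before. Control replicate 1 was below control replicate 2 for 9 of the 10 genes, from 1.09-fold for Ptprc to 2.69-fold for Cd68. For Aif1 it was 2.00-fold above. Without control replicate 1, 2 of the 10 genes passed, Aif1 and Fcer1g. Without control replicate 2, 8 passed.

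At 16.5 dpc and 10 dpp there was 1 library per genotype, so ratios compare libraries and their 95% intervals cover counting error only. All 10 genes were lower in the mutant library at 16.5 dpc, from 0.739 of the control for Ptprc (0.646 to 0.846) to 0.958 for Tyrobp (0.861 to 1.07). For 7 genes, Fcer1g, Csf1r, Cd68, C1qa, C1qb, C1qc and Ptprc, the interval lay below 1, as it did for 20.1% of all genes. No gene of the 10 had an interval above 1, against 21.8% of all genes. None differed 2-fold, the size at which genes were listed, and 0.734% of all genes did. Their median log2 ratio was -0.27.

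Aif1 stood with the rest at 16.5 dpc, at 210 normalised reads in the mutant and 251 in the control (ratio 0.837, 0.694 to 1.01). At 10 dpp it had 151 and 141 (1.07, 0.844 to 1.35). Ratios of the 10 genes at 10 dpp ran from 0.881 for Ptprc to 1.15 for C1qa, whose interval of 1.04 to 1.26 was the only one above 1, against 20.2% of all genes. None was listed at 10 dpp, where 0.886% of all genes were.

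The effect of genotype at 20 dpp was tested against that at the earlier ages in 1 limma fit, where 53.8% of 16282 genes passed, 23.4% higher and 30.4% lower. Of the 10 genes 4 passed. The difference of log2 effects was -3.01 ± 0.47 (SE) for Aif1 (limma adjusted p = 0.00123), 1.21 ± 0.37 for Fcer1g (0.0265), 1.13 ± 0.39 for Tyrobp (0.0392) and 0.98 ± 0.33 for C1qc (0.0359). C1qb had the same difference as C1qc, 0.98 ± 0.37, and did not pass (0.0569). Without control replicate 1 only Aif1 and Fcer1g passed. Without mutant replicate 1, Aif1 and Ptprc (0.99, limma adjusted p = 0.0424) did, and without mutant replicate 2 Fcer1g was at 1.19 (limma adjusted p = 0.0576) and C1qc at 1.07 (0.0548).

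**Figure D3:**
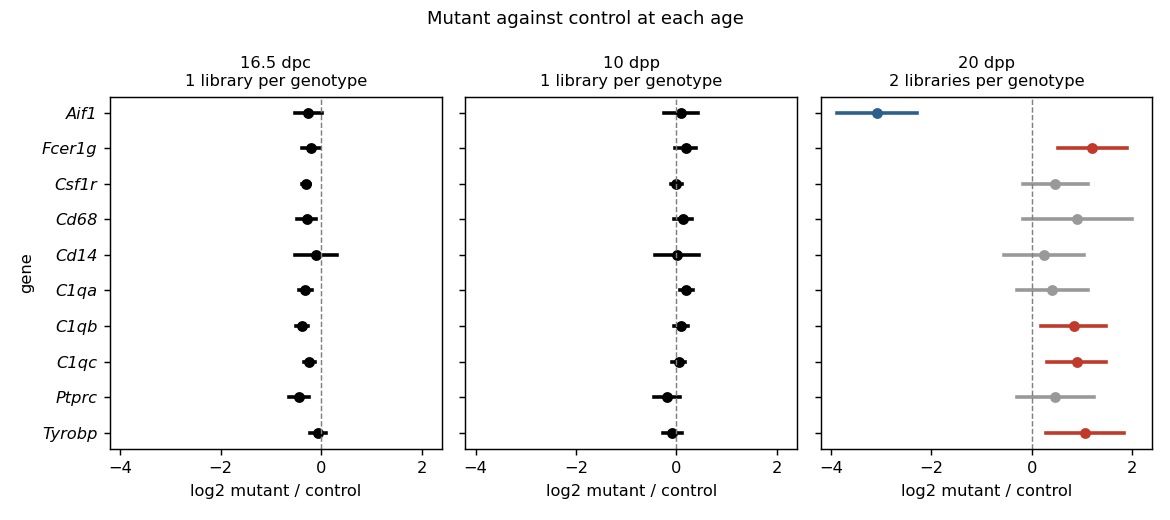
Log2 of mutant over control for the 10 genes. Bars at 16.5 dpc and 10 dpp are 95% counting intervals of 1 library per genotype, bars at 20 dpp are limma's 95% intervals over 2 per genotype, and red, blue and grey at 20 dpp mark higher, lower and not passed; Aif1 moves from -0.26 and 0.10 to -3.09.

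Levels over age were set on total gene reads, without a test. Aif1 was 10.9-fold higher in the controls at 20 than at 10 dpp, as a ratio of geometric means. The other 9 genes ran from 0.447 of the 10 dpp level for Tyrobp and 0.505 for Ptprc to 1.65-fold for C1qa. In the mutants all 10 were above the 10 dpp level, from 1.21-fold for Ptprc to 2.90-fold for C1qa, with Aif1 at 1.83-fold. With TMM factors over the 8 libraries Aif1 was 16.1-fold higher in the controls, and Fcer1g, Csf1r and C1qb turned from below to above the 10 dpp level (1.16-fold, 1.34-fold and 1.43-fold).

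Set against Csf1r, Aif1 divides the libraries. The ratio of Aif1 to Csf1r per length was 0.436 to 0.548 in 6 libraries, both genotypes and all 3 ages among them. It was 11.05 and 2.998 in the 20 dpp controls. Over the 6 libraries Pearson's r of Aif1 with Csf1r, on log2 CPM, was 0.97, and over all 8 it was -0.44. Csf1r had the highest r of the members over the 6. The rest ran from 0.389 for Ptprc and 0.639 for Cd68 to 0.899 for Tyrobp. The 6 are the libraries left after taking out those where Aif1 stood apart. Against the median of the other 9 genes the ratio was 0.261 to 0.373 in the same 6 libraries and 8.99 and 2.72 in the 20 dpp controls. The 20 dpp mutants thus held Aif1 in the proportion of the younger testes, and the 20 dpp controls did not. No test was run on these ratios.

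Likeness to Aif1 in log2 CPM was ranked among 15880 other genes measured in all 8 libraries, with predicted gene models left out. The 5 most like Aif1 were Vwa3a (r = 0.996), Txndc2 (0.996), Ak1 (0.996), 1700073E17Rik (0.994) and Abcc3 (0.992). Txndc2 encodes a thioredoxin of sperm, and Ak1 adenylate kinase. Without the 20 dpp controls r was 0.948 to 0.974, and the value over 8 rests on the pair of controls that stand apart. All 5 fell at 20 dpp, from -2.62 for Ak1 to -4.06 for 1700073E17Rik (limma adjusted p up to 0.000822). Likeness to Aif1 was taken over libraries that include those of 20 dpp. A fall there is therefore built into the choice and is not a separate result. The 5 most like Csf1r were Ptpn7 (0.997), P2ry12 (0.987), Pxylp1 (0.982), Tnfaip8l2 (0.978) and Atp5g2 (0.972). P2ry12 is a nucleotide receptor of microglia and platelets. None of these 5 passed at 20 dpp (log2 changes 0.15 to 0.84), as Csf1r, which they were chosen to resemble, did not. Scaled to total gene reads, P2ry12 (1.28), Pxylp1 (0.94) and Atp5g2 (1.15) did pass, as did Csf1r (1.06). Without control replicate 2, P2ry12 was at 1.27 and Tnfaip8l2 at 1.65.

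Transcripts of spermatids and pachytene spermatocytes fell with Aif1. More spermatogonial genes rose than fell, though their sum was lower in the mutants. Summed over the measured genes of a spermatid list, CPM were 1340 and 912 in the 20 dpp controls, 43.7 and 33.1 in the mutants of that age and 24.5 to 31.2 in the 4 younger libraries. All 18 genes of that list measured at 20 dpp fell (median log2 change -5.96), among them the acrosomal protease Acr (-8.95) and Crem (-3.42), while Prm2, Spaca3, Spaca7, Sun5 and Tex29 were not listed. Of 17 pachytene genes 14 fell, 1 rose and 2 did not pass, with Clgn at -5.79 and Ropn1l at -6.51 and sums of 12233 and 11358 in the controls and 1159 and 734 in the mutants. The control with the higher spermatid sum in CPM also had the higher Aif1 CPM, 1.88 times that of the other (32.3 and 17.2). With 2 controls such an order can easily arise by chance. Of 16 spermatogonial genes 10 rose, 3 fell and 3 did not pass (median 0.95), with Id4 at -2.35 and Ddx4 at -2.26. Their sums were 1757 and 1596 CPM in the 20 dpp controls and 1103 and 1049 in the mutants. The largest part of the control sums was Ddx4, at 127655 and 121494 normalised reads against 28828 and 23529 in the mutants. The part of germ cells in the Aif1 value was not tested.

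**Figure D4:**
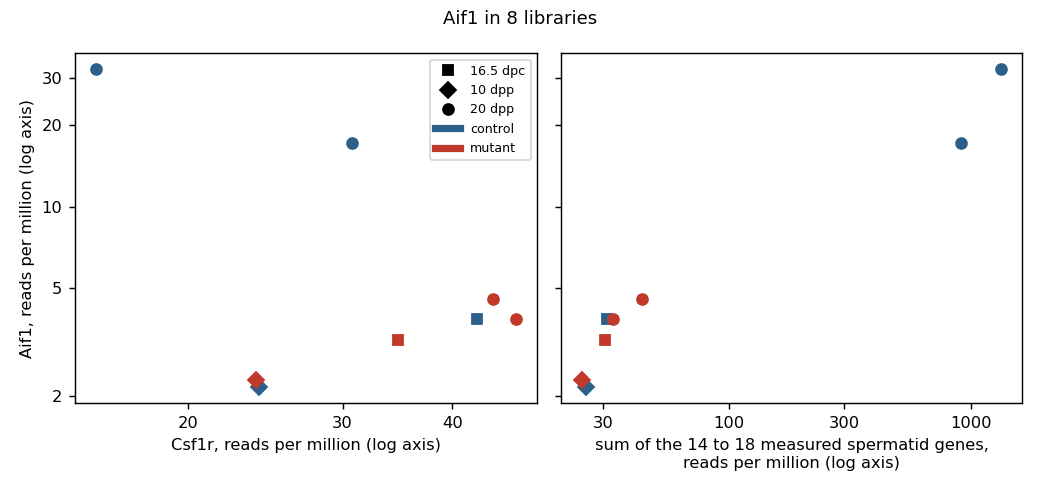
Aif1 in CPM (log axis) against Csf1r (left) and against the summed spermatid list (right), both log axes, in the 8 libraries; blue is control, red mutant, squares 16.5 dpc, diamonds 10 dpp, circles 20 dpp. The 20 dpp controls, at 32.3 and 17.2 for Aif1, stand apart on both, while the other 6 lie between 2.15 and 4.55.

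Among somatic markers the Sertoli cell list rose most often. Of 20 Sertoli cell genes 19 rose and 1 did not pass (median 0.99), with Wt1 at 1.37 and Inha at 1.20, and the list summed to 3161 and 3610 CPM in 20 dpp controls against 9704 and 10255 in mutants (454687 and 487310 against 880113 and 961275 normalised reads). Leydig cell genes had 4 of 13 higher, 1 lower and 8 not passed (median 0.49). Higher were Nr5a1 at 0.87, which is in the Sertoli list too, Hsd3b6 at 0.84, Scarb1 at 0.71 and Cyb5a at 0.67. Fdx1 was lower at -1.01. Star (0.30), Cyp11a1 (-0.29) and Cyp17a1 (-0.25) were among those that did not pass. Peritubular myoid genes had 4 of 10 higher and 6 not passed (median 0.83), with Myh11 at 1.10 and Myl9 at 0.82. Endothelial genes had 2 of 12 higher, Egfl7 at 0.98 among them, and Vwf lower at -0.75 (median 0.30). Of 3 erythroid genes none passed in limma, at an unadjusted p of 0.05 or with voom, though 1 fell without mutant replicate 1 and 1 rose without mutant replicate 2. With 1 library left out, higher calls ran from 18 to 19 for Sertoli, 2 to 7 for Leydig, 0 to 8 for myoid and 0 to 3 for endothelial genes, and Myl9, Myh11, Egfl7 and Vwf each lost their call in at least 1 of these fits. The macrophage marker list summed to 23820 and 27860 normalised reads in controls against 32461 and 35022 in mutants. These sums include Aif1, at 4643 and 2316 in controls against 412 and 360 in mutants. Their largest part was Mrc1, at 8378 and 9644 against 11890 and 11789. In CPM the same sums were 166 and 206 against 358 and 374, a wider gap, as for the Sertoli list. Their part in the leukocyte values was not tested.

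The genes around the 10 were described by lists of the same pathways. Over 12 leukocyte lists without the 10 genes, 148 of 178 genes were measured at 20 dpp. Of these 39 rose (26.4%), 19 fell (12.8%) and 90 did not pass, with a median of 0.53. The share that rose equals the 26.4% of all genes, and the share that fell is below their 33.1%. With total gene reads 86 of the 148 rose and 15 fell, against 8427 and 3795 of all 17194 genes. The counts per list below stand beside the same background. Counts of genes that rose are given below with their range when 1 library is left out, in which the lowest came without control replicate 1 in each of the 7 lists that hold the 10 genes, level with mutant replicate 1 in the pan-leukocyte list, and the highest without control replicate 2.

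Around Csf1r, in the list of its ligands and macrophage transcription factors, 5 of 13 genes rose (3 to 8), none fell, in limma with or without adjustment or with voom, and 8 did not pass (median 0.91). Csf1, the ligand, had 1398 and 2458 normalised reads in the controls and 3995 and 3643 in the mutants and rose by 1.04 (limma adjusted p = 0.0123). Il34, the other ligand, was at -0.20 (0.752). The GM-CSF receptor chain Csf2ra rose by 0.91 ± 0.17 (limma adjusted p = 0.00268), while Spi1, which encodes PU.1, was at 0.54 (0.236). Csf1, Il34 and Spi1, like other genes given below beside those of lowest p in each list, were picked for their role with values known.

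In the list of ITAM adaptors and Fc receptor signalling, 4 of 17 rose (1 to 6), 4 fell and 9 did not pass (median 0.45). The kinase Syk, which binds the phosphorylated adaptors, rose by 1.28 (limma adjusted p = 0.0171), and without control replicate 1 it was at 0.75 (0.0587). Fcgr3, an Fc receptor that pairs with the Fcer1g chain, had 4474 and 3831 normalised reads in the controls and 958 and 899 in the mutants and fell by 2.16 on the log2 scale (5.43e-05). Inpp5d, the lipid phosphatase SHIP1, fell by 1.66 (0.000836). Fcgr2b, a near relative of Fcgr3 in sequence that can share reads with it, rose by 1.19 (0.0188), so the pair is uncertain. Without control replicate 1 Fcgr2b was at 0.78 (limma adjusted p = 0.0854), and without mutant replicate 2 at 0.97 (0.0711).

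Complement genes counted 5 of 18 higher (2 to 7), 2 lower and 11 not passed (median 0.56). Properdin, Cfp, rose by 1.76 (limma adjusted p = 0.000829), C3, the central component, was at 0.57 (0.0571, and 0.76 with 0.0344 without mutant replicate 2), and C4b, whose reads can be shared with its copy C4a, fell by 2.54 (0.000142). In the list of CD14 and Toll-like receptor signalling 6 of 21 rose (3 to 6), 2 fell and 13 did not pass (median 0.56). Ly96, the MD-2 partner of TLR4, rose by 1.76 (0.0297), a call lost without control replicate 1 (1.04, limma adjusted p = 0.129) and without mutant replicate 2 (1.55, 0.0963). Tlr4 was at 0.06 (limma adjusted p = 0.911). Irak3, a brake on Toll-like receptor signalling, had 12613 and 9831 normalised reads in the controls and 586 and 517 in the mutants and fell by 4.34 (2.97e-06), and Myd88, the shared adaptor, fell by 1.68 (0.000104).

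Of the phagocyte lysosome and oxidase genes beside Cd68, 10 of 19 rose (4 to 13), 1 fell and 8 did not pass (median 0.82). Cathepsin L, Ctsl, which Sertoli cells also make, rose by 1.09 (limma adjusted p = 0.000346), cathepsin S, Ctss, rose by 0.82 (0.0200, but 0.110 without control replicate 1 and 0.0582 without mutant replicate 2), and Lamp1 fell by 1.09 (0.000226). Macrophage markers counted 5 of 20 higher (2 to 8), Aif1 lower and 14 not passed (median 0.61), with the phagocytic receptor Mertk at 0.79 (0.00936) and the folate receptor Folr2 at 0.95 (0.0209, but 0.104 without control replicate 1 and 0.0827 without mutant replicate 1). Adgre1 was at 0.07 (0.881). Pan-leukocyte genes, the list of Ptprc, counted 5 of 20 higher (2 to 8), 3 lower and 12 not passed (median 0.53). Cytip rose by 0.90 (0.00211), and Dock2, an exchange factor of leukocyte migration, fell by 2.46 (0.000114).

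With the authors' factors, lists of other leukocytes held at most 1 gene that rose. MHC class II and dendritic cell genes had 1 of 13 higher and 2 lower (median 0.07), H2-DMb1 at -3.45 (limma adjusted p = 0.000195) and H2-Ab1 at -1.21 (0.0160). T and NK cell genes had none of 10 higher, also without adjustment and with voom, and 4 lower (median -0.42, 2 lower without control replicate 2), with Cd3d at -2.67 (0.00278) and Zap70 at -2.35 (0.00618), and they summed to 1502 and 1377 normalised reads in controls against 921 and 999 in mutants (10.4 and 10.2 against 10.2 and 10.7 CPM). B cell genes had Blnk at 1.50 (0.0396) and Pax5 at -3.74 (0.00219) among 6. Of the mast cell list Hdc alone was measured, at 0.41 (0.0333), and neither of the 2 granulocyte genes passed, in limma with or without adjustment or with voom. Blnk and Hdc kept their call with mutant replicate 2 left out and lost it without any of the other 3 libraries (limma adjusted p from 0.0580 to 0.240 for Blnk and 0.0517 to 0.205 for Hdc), and H2-Ab1 lost it without control replicate 1 (0.0532) or mutant replicate 1 (0.0549). Scaled to total gene reads, 5 of 13 MHC class II and dendritic cell genes rose (median 0.65), and so did 1 of the 2 granulocyte genes. The T and NK, B and mast cell lists still held at most 1 gene that rose. The differences between lists were not tested.

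**Figure D5:**
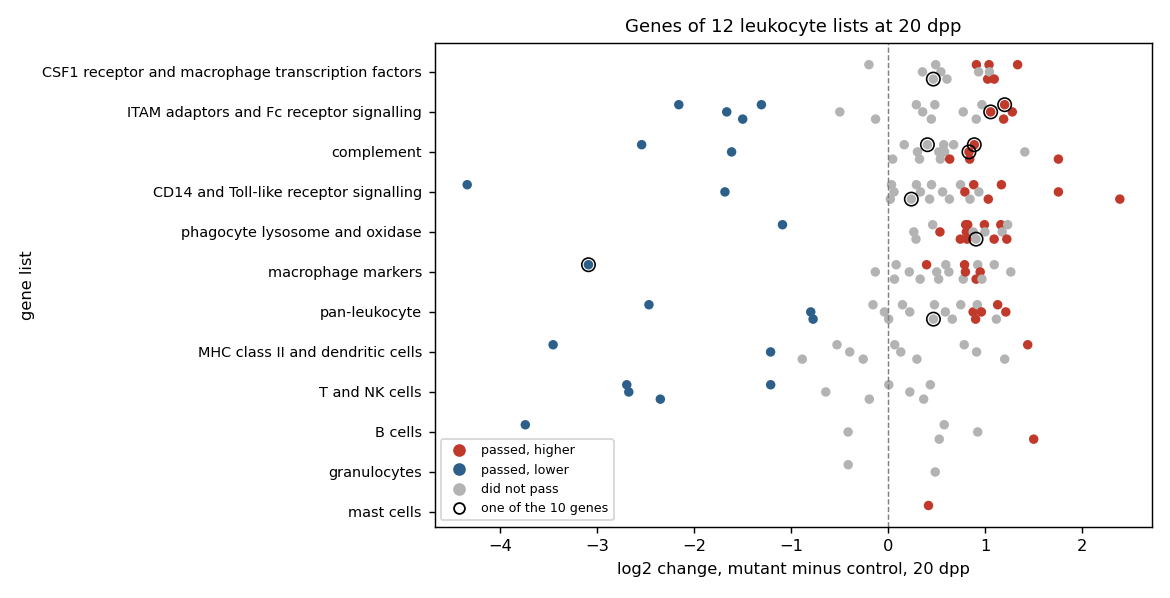
Log2 change at 20 dpp, mutant minus control, of every measured gene in 12 leukocyte lists; red passed higher, blue passed lower, grey did not pass, and open circles mark the 10 genes. The list beside Csf1r has no blue point, the T and NK list has no red one, and Irak3 at -4.34 is the lowest of all.

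The 19 list genes that fell beside Aif1 were set beside its course over age. They were picked for 20 dpp controls above mutants, which favours high 20 dpp controls and a high r with Aif1. The shares over all genes were not counted, so the counts here describe these genes only. In 17 of the 19 the mean of the 20 dpp controls was above the 10 dpp control in CPM. Cd55, a complement regulator, was below, at 0.654 of it, and Pax5 was not measured earlier. Irak3 was 21.1-fold higher at 20 than at 10 dpp in the controls and 1.24-fold in the mutants, and Fcgr3 was 5.12-fold and 1.54-fold higher. Aif1 was 11.5-fold and 1.84-fold higher by the same ratio of arithmetic means. For 5 genes, Irak3, C4b, Fcgr3, Myd88 and Inpp5d, r with Aif1 over the 8 libraries was above 0.9, from 0.907 to 0.981. Over the 6 libraries without the 20 dpp controls it was 0.945 for Fcgr3 and 0.946 for Inpp5d, but 0.01 for Irak3 and 0.28 for Myd88.

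Genes next to Aif1 on chromosome 17 were read as its surroundings, 3 measured genes on each side. On the lower coordinate side Bag6 fell by 1.82 (limma adjusted p = 4.94e-05) and Prrc2a by 1.20 (0.00152), and Apom was at -1.01 (0.220). On the higher side the lymphotoxin gene Ltb rose by 2.13 (0.00686), with 24.2 and 30.3 normalised reads in the controls and 130 and 115 in the mutants. Lst1, a leukocyte gene, was at 1.17 (0.0990), and Lta, the other lymphotoxin chain, at 2.10 (0.0740, and 3.38 with 0.00424 without mutant replicate 2). Aif1 thus lay between genes that fell and a gene that rose, with a larger log2 change than any of the 6.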

How the data were processed

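Whole testis RNA-seq of 8 libraries was used, in 6 groups of genotype and age. The authors deposited log2 values per gene. The submitters' processing notes name the genome build mm10, TopHat2 2.0.6, HTSeq 0.6.1 and Bowtie 1.0.0; annotation and strand setting: not given in the sources used here. Each deposited log2 value was log2 of a whole count over a library factor set within its age, plus 1; counts recovered from it were whole within 0.01 reads for 100% of values.

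At 20 dpp the deposited values of all genes and repeat families were fitted with limma 3.58.1 in R 4.3.3 (eBayes with a trend), with Benjamini-Hochberg adjustment over all genes at 0.05. The difference of effects was fitted over all ages with age as a term, and the 2 earlier ages shared 1 genotype term. Folds are on the log2(value + 1) scale. Ratios at single-library ages have exact conditional binomial 95% intervals and were listed at 2-fold, an interval excluding 1 and 50 reads in both libraries together. Voom on the recovered reads was an alternative and called 10105 genes at 20 dpp, against 10228.

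The 10 genes and the 20 lists were chosen with earlier results of these data known. The lists hold 310 entries, 2 of which were found under an older symbol. Genes named beside the 10 are, per list with a call, the 2 of lowest p (1 is not reported here), the 5 most like Aif1 and Csf1r, the 3 nearest on each side of Aif1, and those said to be picked for their role or fall. Coordinates are from GENCODE M21 (mm10), and promoter windows from RefSeq (GRCm38.p6). Python 3.11.15 with SciPy 1.17.1 gave intervals.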

Additional observations from a re-analysis of the deposited data

Results flagged for a closer look

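For 4 of the 10 genes the effect of genotype at 20 dpp differed from that at 16.5 dpc and 10 dpp in limma's test of the difference. The difference of log2 effects was -3.007 for Aif1, 1.209 for Fcer1g, 0.985 for C1qc and 1.129 for Tyrobp, with limma adjusted p-values of 0.00123, 0.0265, 0.0359 and 0.0392. The same test passed for 53.8% of all genes. Both earlier ages have 1 library per genotype and share 1 genotype term in the fit. The difference for Aif1 held under all 9 alternatives (-3.51 to -2.40, limma adjusted p from 0.000555 to 0.00740), and the other 3 lost their call under at least 2 of the 9 alternatives.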

How the results depend on the processing

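Of the 10 genes, 5 passed at 20 dpp, and 5 did with TMM factors, genes fitted alone, a mean of at least 50 reads, a pseudocount of 4, voom and the replicate block. With total gene reads 9 passed and without a trend 2. Leaving out 1 library at a time gave 2 to 8. For the difference of effects 4 passed, 7 with total gene reads, 2 without a trend and 2 to 8 with 1 library left out. Without control replicate 1 the sign turned for Cd14 and C1qa at 20 dpp and for C1qa in the difference of effects, none of them called. Over the libraries left out these ran from -0.030 to 0.51 for Cd14, from -0.062 to 0.87 for C1qa and from -0.0054 to 0.93 for the difference in C1qa. Genes named beside the 10 that turned sign, none of them called, were Il34 (0.39) and Hmgxb3 (0.27) with total gene reads and Tlr4 (-0.011) and Adgre1 (-0.043) with voom. With 1 library left out Il34 ran from -0.74 to 0.34, Tlr4 from -0.35 to 0.48, Adgre1 from -0.41 to 0.54 and Ptpn7 from -0.13 to 0.43. Of 50 other genes followed (2 per list, neighbours, most alike and picked by role) that passed at 20 dpp, 36 kept their call under all 12 alternatives. Without a trend the limma adjusted p at 20 dpp was 0.0981 for C1qb, 0.0696 for C1qc and 0.0521 for Tyrobp. Genes past the threshold at 20 dpp ran from 7672 to 12222 over the alternatives, and with total gene reads 8427 were higher and 3795 lower, against 4539 and 5689. For the difference of effects total gene reads gave 7680 higher and 3191 lower, against 3809 and 4945. All 60 alternatives for ratios at the single-library ages stayed within their counting intervals. Replicate numbers are shared by the genotypes at 20 dpp. The deviations of same-numbered libraries correlated by 0.036 over 17194 genes, so no strong shift shared by number was seen. What the numbers mark is not stated, and this value cannot exclude a pairing. With the replicate block 10059 genes passed. Leaving out a library leaves 1 in its group, assumed to vary like the other group. With 2 libraries per genotype, and with 1 at the younger ages, precision is set by the number of libraries rather than by reads.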
